A study of Mus musculus with 13 samples.

Results

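The genes described here encode protein subunits of the mitochondrial respiratory chain and of ATP synthase, in RNA-seq of mouse embryonic limb buds. They were chosen by name: every symbol in the deposited expression table that matched the naming patterns Nduf, Sdh, Uqcr, Cox4 to Cox8 and Atp5, with pseudogene names left out. This gave 74 of the 12880 genes in the table: 36 of complex I, 4 of complex II, 8 of complex III, 11 of complex IV and 15 of ATP synthase. The rule used names alone and no measured value, although it was set with earlier results of these data known. A chain gene whose mean stayed under 3 RPKM in every group is not in the table, so these are the chain genes above that level and not the whole chain. The patterns also took in Atp5s and Atp5sl, which carry ATP synthase names but encode no core subunit, and they missed listed subunits with other names, such as Cyc1 and Cox4i1. None of the 13 chain genes encoded by mitochondrial DNA was analysed here.

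The respiratory chain sits in the inner mitochondrial membrane. Complex I (NADH dehydrogenase) and complex II (succinate dehydrogenase, also an enzyme of the tricarboxylic acid cycle) pass electrons to ubiquinone, complex III (the cytochrome bc1 complex) passes them on to cytochrome c, and complex IV (cytochrome c oxidase) passes them to oxygen. Complexes I, III and IV pump protons as they do so, and ATP synthase makes ATP as the protons flow back. Early limb bud mesenchyme is proliferative and known for strong glycolysis, and its cells differentiate into cartilage, tendon and connective tissue over the days sampled here.

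The 13 libraries fell into 4 groups, and each library came from the limb buds of 1 embryo, per the file headers. Ages are in embryonic days. At E11.5 there were 3 controls, Sox9fl/-, with 1 Sox9 allele flanked by loxP sites and 1 null allele, and 4 mutants, Sox9-/-, here called Sox9null. At E12.5 there were 3 controls, Sox9fl/fl, and 3 conditional mutants, Sox9fl/flPrx1CreER, here called Sox9cKO. Prx1 drives Cre in limb mesenchyme, so cells of other kinds keep the gene, and the CreER form needs tamoxifen to act, a treatment that the sources used here do not describe. SOX9 is the transcription factor that cartilage formation depends on. Since the controls of the 2 ages differ in Sox9 copies, age, genotype and any difference in handling between the ages cannot be told apart.

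Promoters of 64 of the 74 genes were matched by name in the RefSeq table of build GRCm38.p6, where a promoter runs from 250 bases before to 50 bases after the start of transcription. The motifs of 4 kinds of factors known for nuclear-encoded mitochondrial genes were looked for on both strands. They were GCGCANGCG for NRF1, CCGGAAG for ETS factors such as GABP, AAGATGGCG for YY1 and TCAAGGTCA for the estrogen-related receptors (ERR). The 250 bases before the start are shown for Atp5j and Ndufb7, which were lower at the later age in controls and in mutants, for Atp5g3 and Sdhd, which hold the only ERR matches, and for Cox6a1, which holds the most matches (4). Capitals mark the motif letters, and each sequence reads 5′ to 3′ on the gene's own strand.
Atp5j: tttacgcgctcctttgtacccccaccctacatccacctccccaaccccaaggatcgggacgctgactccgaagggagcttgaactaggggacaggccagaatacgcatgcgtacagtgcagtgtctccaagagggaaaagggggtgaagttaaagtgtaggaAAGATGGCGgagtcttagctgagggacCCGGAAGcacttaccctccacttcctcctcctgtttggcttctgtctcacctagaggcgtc
Ndufb7: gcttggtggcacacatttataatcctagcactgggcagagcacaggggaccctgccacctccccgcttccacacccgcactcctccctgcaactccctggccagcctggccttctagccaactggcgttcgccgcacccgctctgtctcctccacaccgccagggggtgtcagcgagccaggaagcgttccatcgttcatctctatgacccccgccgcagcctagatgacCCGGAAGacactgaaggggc
Atp5g3: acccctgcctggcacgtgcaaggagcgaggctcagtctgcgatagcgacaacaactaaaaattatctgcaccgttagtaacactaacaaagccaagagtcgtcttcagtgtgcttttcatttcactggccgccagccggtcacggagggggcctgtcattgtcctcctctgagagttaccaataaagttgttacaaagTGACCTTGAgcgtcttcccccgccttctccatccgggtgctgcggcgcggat
Cox6a1: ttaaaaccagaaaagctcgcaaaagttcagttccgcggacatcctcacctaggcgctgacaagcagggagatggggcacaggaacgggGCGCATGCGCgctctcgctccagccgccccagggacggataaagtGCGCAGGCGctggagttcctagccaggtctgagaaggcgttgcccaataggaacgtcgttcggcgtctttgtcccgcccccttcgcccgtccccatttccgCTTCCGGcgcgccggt
Sdhd: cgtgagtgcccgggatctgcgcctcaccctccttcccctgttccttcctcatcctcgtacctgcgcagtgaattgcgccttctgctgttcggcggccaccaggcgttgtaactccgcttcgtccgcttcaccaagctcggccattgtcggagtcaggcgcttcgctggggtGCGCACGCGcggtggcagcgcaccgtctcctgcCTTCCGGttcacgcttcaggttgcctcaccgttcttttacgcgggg

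The Atp5j stretch lies at chr16:84834977-84835226 on the minus strand and holds a YY1 match at -88 and an ETS match at -61 from the start; a promoter of another Atp5j start held no match. Ndufb7 (chr8:83566508-83566757, plus strand) has an ETS match at -20. Atp5g3 (chr2:73911327-73911576, minus strand) has the ERR letters reversed at -52, and an NRF1 match at 14 bases after the start. In Cox6a1 (chr5:115348959-115349208, minus strand) the first capitals hold 2 overlapping NRF1 matches, 1 on each strand, since the NRF1 letters can read nearly alike both ways. Sdhd (chr9:50603850-50604099, minus strand) holds NRF1 and ETS matches at -79 and -46, and an ERR match at 37 bases after the start.

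Over the 70 promoters of these genes, 27.1% held the NRF1 letters, beside 13.4% of the 12119 promoters of all listed genes and 6.25% of all 32851 promoters in the table. The ETS letters stood in 21.4%, beside 17.6% and 8.86%. The YY1 letters stood in 12.9%, beside 3.06% and 1.4%, and 7 of those 9 promoters had them on the coding strand, with the first letter 23 to 36 bases after the start. Promoters of the same gene can overlap, so a site can count more than once. The 9 promoters with YY1 letters belong to 8 genes, and the 19 with NRF1 letters to 18. The ERR letters stood in 2.86%, beside 0.239% and 0.423%. In all, 34 of the 64 genes had at least 1 match and 30 had none. A match is a run of letters in this window and does not show that a factor binds there.

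Values are normalized RPKM, reads scaled to the length of the gene and the size of the library. Which length was used for each gene is not known here, so levels of different genes compare only roughly. Sox9 itself had 35.8 to 49.3 RPKM in the E11.5 controls and 20.6 to 25.7 in Sox9null, without overlap, a log2 difference of -0.76 (limma adjusted p = 0.036, exact permutation p = 0.0571, the smallest these group sizes allow). At E12.5 it had 35.2 to 37.5 RPKM in controls and 28.7 to 35.1 in Sox9cKO, narrowly without overlap. The log2 difference there was -0.18 (limma adjusted p = 1.00, exact permutation p = 0.1, the smallest these group sizes allow). The mutants of both ages thus still held Sox9 reads, and a value per gene does not show from which exons they came. By correlation over all genes, the E11.5 libraries formed 2 clusters. Controls 1 and 3 joined Sox9null 3 and 4, called the set of 4 here, while control 2 joined Sox9null 1 and 2, called the set of 3. Both sets hold both genotypes, they were defined from these values, the 74 genes included, and the labels name no batch that parts them. By Y-linked genes, 1 of 3 E11.5 controls, 1 of 4 Sox9null, 3 of 3 E12.5 controls and 1 of 3 Sox9cKO libraries were male. All 8 listed markers of limb mesenchyme and 10 of cartilage were above 0 in every library, as were those of muscle, red blood cells, vessels, epidermis and macrophages. In whole limb buds, fewer cells of a type and less RNA per cell cannot be told apart.

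Levels ranged widely among the 74 genes. Mean RPKM over the 13 libraries ran from 3.23 for Ndufs5 to 104 for Atp5a1, with a median of 31.1, beside 16.8 for all protein-coding genes in the table. In ATP synthase, Atp5a1, which encodes the alpha subunit of the catalytic head, was highest, and Atp5g1, 1 of the genes for the membrane ring subunit c, was lowest with a mean of 4.48 RPKM. Another subunit c gene, Atp5g3, had 39.1 RPKM, while Atp5g2 was not analysed here. The joined exons of Atp5g1 measure 4912 bases and its short reference transcript 596, against 2181 and 714 for Atp5g3. Since the length behind the RPKM is not known, the size of the gap between Atp5g3 and Atp5g1 is uncertain. In complex I, Ndufa4 was highest (85.7 RPKM); its protein is now mostly counted with complex IV. In complex IV, Cox6b1 was highest (84.5 RPKM) and Cox7a1, the isoform of heart and skeletal muscle, was lowest (3.89 RPKM), far under the widely expressed Cox7a2. In complex III, Uqcrc1, a core protein, was highest (73.4 RPKM) and Uqcrb lowest (13.8 RPKM). In complex II, Sdhd, a membrane anchor, was highest (57.4 RPKM) and Sdhc, the other anchor, lowest (22.8 RPKM).

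**Figure D1:**
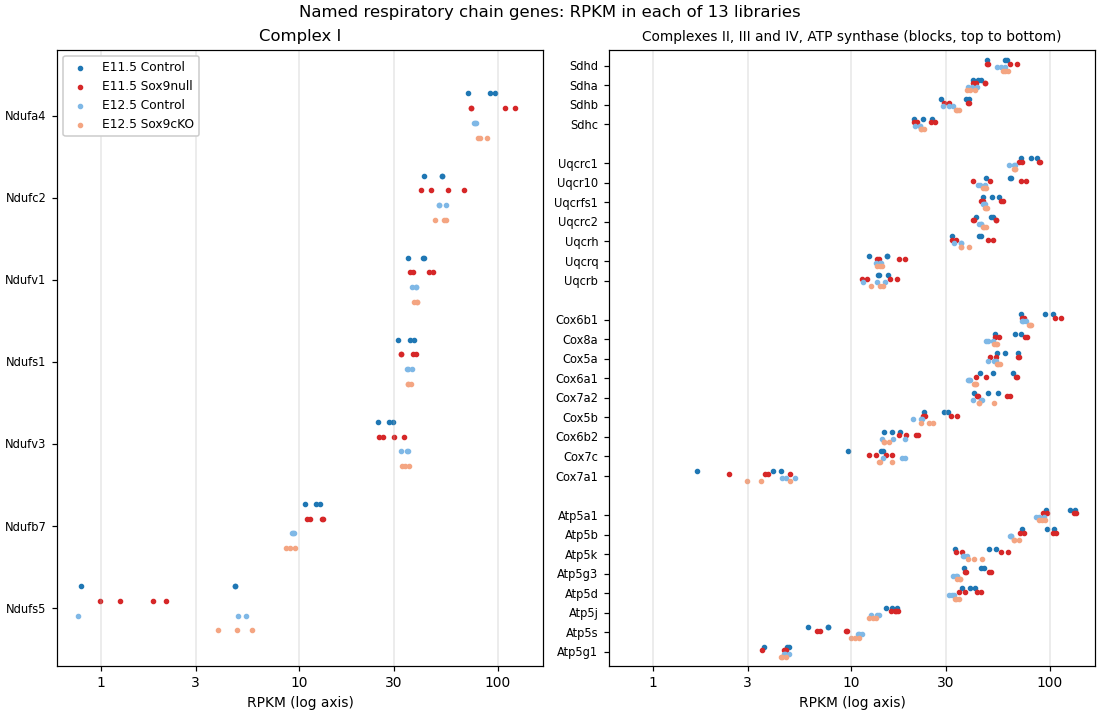
RPKM (log axis) in each of the 13 libraries for the 35 genes of the naming rule (called genes, extremes of each complex, core subunits and isoforms), 1 line per gene and 1 dot per library, coloured by group, with genes ordered by mean within complexes. Genes differ far more from each other than groups do, from Ndufs5 with a mean of 3.23 to Atp5a1 with 104, and most lines show 2 clumps of E11.5 dots.

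Together the 74 genes made up 0.907% to 1.19% of the summed RPKM of the listed genes, and the E11.5 libraries held both ends of that range. Among the E11.5 controls the share was 1.10% in library 1, 0.907% in library 2 and 1.08% in library 3. Among Sox9null libraries 1 to 4 it was 0.918%, 0.928%, 1.14% and 1.19%. The 3 E12.5 controls had 0.952%, 0.949% and 0.928%, and the 3 Sox9cKO libraries 0.962%, 0.950% and 0.977%. The libraries of the set of 4 were thus all high and those of the set of 3 all low, with the E12.5 libraries between them or near the low end. Over all E11.5 libraries the genotypes overlapped, while within each set every Sox9null share was above every control share. At E12.5 the control and Sox9cKO shares overlapped.

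This split ran through the chain gene by gene. For 70 of the 74 genes every library of the set of 4 was above every library of the set of 3, and for 0 every one was below; among all genes these shares were 41% and 16.3%. The 70 took in all 36 genes of complex I, all 4 of complex II, all 8 of complex III, 8 of 11 of complex IV and 14 of 15 of ATP synthase. The median log2 difference between the sets was 0.34 for the 74 genes and 0.11 for all genes. The genes whose sets overlapped were Atp5j, Cox6c, Cox7a1 and Cox6b2, the last of these with a mean lower in the set of 4 (log2 difference -0.15). Atp5b, the catalytic beta subunit, shows the common pattern. It had 106, 96.9, 108 and 104 RPKM in controls 1 and 3 and Sox9null 3 and 4, and 72.2, 70.6 and 74.2 in control 2 and Sox9null 1 and 2. Ndufs1, the largest complex I subunit, moved less: 37.8, 35.997, 38.9 and 37.3 RPKM in the set of 4 and 31.3, 32.4 and 32.7 in the set of 3. The sets give a description, with no test, since they were defined from the data.

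**Figure D2:**
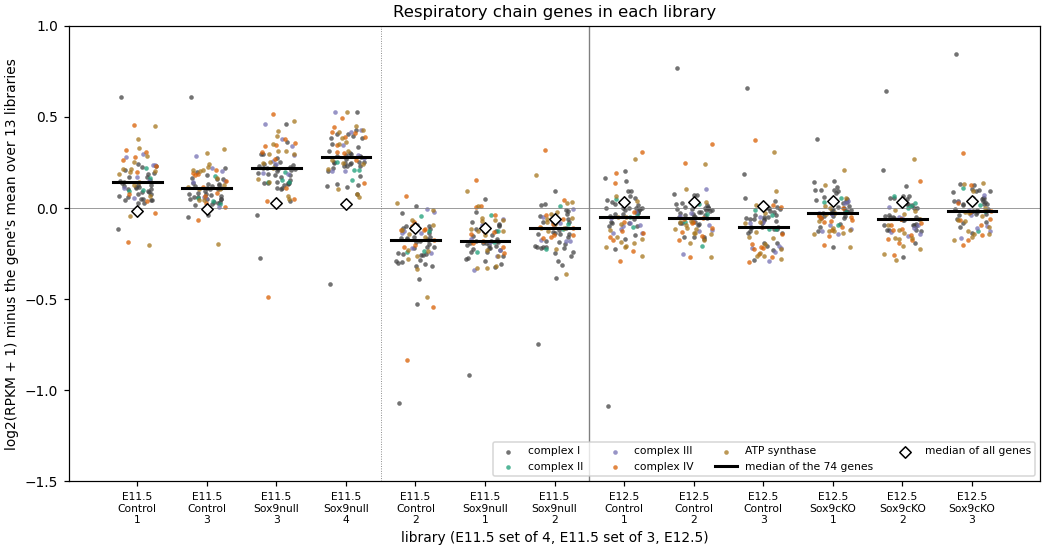
Each dot is 1 of the 74 genes, as its log2(RPKM + 1) in a library minus its mean over the 13 libraries, coloured by complex; black bars are the medians of the 74 genes and diamonds those of all genes. The bars lie from 0.11 to 0.28 in the E11.5 set of 4, from -0.18 to -0.11 in the set of 3 and from -0.10 to -0.02 at E12.5.

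Other lists showed how far the split reached. Of 74 mitochondrial ribosomal protein genes 64 were higher in every library of the set of 4, and of 78 cytosolic ribosomal protein genes 71 were. Of 17 tricarboxylic acid cycle genes 14 (82.4%) were, and of 33 chain assembly factors 24 (72.7%), beside 41% of all genes. Of 21 glycolysis genes 10 (47.6%) were, and of 15 regulators of mitochondrial gene expression 5 (33.3%), which is near or below the share of all genes. The summed RPKM of the erythroid markers ran from 862 to 1482 in the set of 4 and from 833 to 881 in the set of 3, that of the muscle markers from 52.9 to 85.0 and from 60.2 to 97.4. The part of these cell types in the split was not tested. Among the 7 E11.5 libraries the median SD of the 74 genes on the log2 scale was 0.20, beside 0.14 for all genes, and among the 6 E12.5 libraries 0.06 beside 0.07.

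Loss of Sox9 at E11.5 was compared first. No gene of the chain was called: 0 of 74 rose and 0 fell in Sox9null at an adjusted p under 0.05 (limma on log2(RPKM + 1), Benjamini-Hochberg over all 12880 genes), beside 0.0543% of all genes called. At an unadjusted p under 0.05 there was 1 gene, Cox6b2, beside 2.82% of all genes. The median log2 difference was 0.03, beside 0.01 for all genes, with 62 of the 74 genes above 0 beside 56.8% of all genes, and 72 lay within 0.2 of 0 with a median standard error of 0.12. No gene had all Sox9null libraries above or all below the controls, beside 1.41% and 1.06% of all genes.

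The catalytic and core subunits had near-equal means in both groups. Atp5b averaged 91.6 ± 17.4 RPKM over the controls (± SD, n = 3) and 89.2 ± 19.5 over Sox9null (n = 4). Sdha, the flavoprotein of complex II, had 43.1 ± 2.13 and 44.3 ± 3.10, and Uqcrfs1, the Rieske iron-sulfur protein of complex III, 50.9 ± 4.55 and 51.5 ± 6.99. Ndufv1, the NADH-binding subunit of complex I, had 39.97 ± 4.01 and 41.4 ± 5.47, and Cox5a of complex IV 61.0 ± 7.82 and 60.7 ± 10.4. The highest difference was that of Cox6b2, an isoform best known from testis, at a log2 difference of 0.28 ± 0.10 (SE, with a limma adjusted p of 1.00). The lowest was that of Ndufs5, at -0.64 ± 0.47 (SE, with a limma adjusted p of 1.00).

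Within the library sets the mutant values lay somewhat higher. In the set of 4, Sox9null 3 and 4 had higher means than controls 1 and 3 for 71 of the 74 genes, beside 8024 of all 12880 genes. The median log2 difference was 0.13 beside 0.03 for all genes. In the set of 3, the mean of Sox9null 1 and 2 was above control 2 for 59 genes, beside 7540 of all 12880. The medians were 0.04 and 0.02. Adding the library set to the model gave 0 calls among the 74 genes and a median of 0.09, beside 0.03 for all genes. With it 32 of 74 (43.2%) were at an unadjusted limma p under 0.05, beside 14.5% of all genes. In the set of 4 alone 42 (56.8%) were at such a p, beside 15.6% of all genes, again with 0 called. The erythroid markers summed to 833 to 941 RPKM in the E11.5 controls and 852 to 1482 in Sox9null, and their part in these values was not tested.

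At E12.5 again 0 of the 74 genes rose and 0 fell in Sox9cKO (limma, adjusted p under 0.05), beside 0.194% of all genes called, and 0 had an unadjusted p under 0.05, beside 5.41%. Fitted on the E12.5 groups alone, 15 of 74 (20.3%) had such a p, beside 13.8% of all genes, again with 0 called. The median log2 difference was 0.03 beside 0.01 for all genes, 54 genes were above 0 beside 56.8% of all genes, and 71 lay within 0.2 of 0. For 18 genes every Sox9cKO library was above every control, beside 11.51% of all genes, and for 0 every one was below, beside 8.5%. Those 18 genes included Sdhb, the iron-sulfur protein of complex II, with 31.2, 28.9 and 32.6 RPKM in controls and 34.9, 33.8 and 34.0 in Sox9cKO, a log2 difference of 0.14 ± 0.13 (SE, with a limma adjusted p of 1.00). They also included Cox6b1, with 73.7, 76.0 and 72.7 RPKM in controls and 80.4, 78.3 and 79.7 in Sox9cKO, a log2 difference of 0.10 ± 0.17 (SE, with a limma adjusted p of 1.00). The standard errors pool the spread of all groups, and for these genes that spread was wider at E11.5 (median SD 0.20 on the log2 scale) than at E12.5 (0.06). Cox6b1 had SDs of 1.66 RPKM over the E12.5 controls and 1.07 over Sox9cKO.

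The sexes were unequal at E12.5, and with sex as a term the median became 0.13, beside 0.04 for all genes, still with 0 genes called. That term was fitted over both ages, and at E11.5 every male library was in the set of 4 and the set of 3 was all female. Sex and the library sets are thus mixed in it, and this median is not a clean correction for sex. The erythroid markers summed to 640 to 693 RPKM in the E12.5 controls and 881 to 1088 in Sox9cKO, without overlap, and the muscle markers to 216 to 283 and 139 to 224. Their part in the small differences was not tested. Cox7a1 had the lowest difference, with 4.45, 4.66 and 5.18 RPKM in controls and 3.52, 2.98 and 4.89 in Sox9cKO, a log2 difference of -0.28 ± 0.26 (SE, with a limma adjusted p of 1.00). The test of whether the mutant effects differed between the ages called 0 of the 74 genes, beside 0.0311% of all genes, with a median of 0.00. At an unadjusted p under 0.05 there was 1 gene, Cox6b2, beside 3.05% of all genes.

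Age gave the only calls. In controls 2 genes rose from E11.5 to E12.5 and 3 fell, beside 16.5% and 5.19% of all genes, and 69 were not called. In mutants 0 rose and 3 fell, beside 14.5% and 5.23%, and 71 were not called. The median log2 difference was -0.08 in controls and -0.08 in mutants, while over all genes it was 0.06 in both. Above 0 were 19 genes in controls and 20 in mutants, beside 60.9% and 61.7% of all genes. At an unadjusted p under 0.05 there were 14 and 14, beside 36.5% and 36.4%. Centring each library on its median, which moved the median of all genes to -0.04 in controls and -0.02 in mutants, gave 1 rise and 15 falls in controls, beside 10.6% and 15% of all genes, and 0 and 11 in mutants, beside 8.94% and 10.8%. The groups did not overlap for 4 genes higher and 15 lower in controls, beside 32.6% and 13.3% of all genes, and for 2 higher and 7 lower in mutants, beside 23.7% and 9.75%. By complex, the median in controls was -0.03 for complex I, -0.08 for complex II, -0.16 for complex III, -0.20 for complex IV and -0.23 for ATP synthase. In mutants the same medians were -0.03, -0.02, -0.15, -0.18 and -0.21.

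Atp5j and Ndufb7 fell in both comparisons. Atp5j (ENSMUSG00000022890, chr16:84827866-84835625 in GRCm38) encodes coupling factor 6, part of the stalk that holds the catalytic head of ATP synthase to the membrane. Its RPKM was 16.9, 15.02 and 16.006 in the E11.5 controls, 15.8, 16.8, 16.6 and 17.2 in Sox9null, 12.54, 13.5 and 13.8 in the E12.5 controls and 13.3, 12.2 and 12.9 in Sox9cKO. All E12.5 libraries were thus below all E11.5 libraries, and its library sets overlapped. The log2 difference was -0.25 ± 0.06 in controls (SE, with a limma adjusted p of 0.0129, 0.000175 to 0.0927 over the alternatives) and -0.35 ± 0.06 in mutants (SE, with a limma adjusted p of 0.00317, at most 0.0242 over the alternatives).

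Ndufb7 (ENSMUSG00000033938, chr8:83566671-83571626) encodes an accessory subunit of complex I. Its RPKM was 12.7, 10.7 and 12.1 in the E11.5 controls, 11.0, 11.3, 13.0 and 13.2 in Sox9null, 9.29, 9.38 and 9.15 in the E12.5 controls and 8.99, 8.60 and 9.54 in Sox9cKO. Here too the ages did not overlap. The log2 difference was -0.32 ± 0.08 in controls (SE, with a limma adjusted p of 0.0176, 3.35e-05 to 0.0702 over the alternatives) and -0.38 ± 0.08 in mutants (SE, with a limma adjusted p of 0.00794, at most 0.0466). Both calls in mutants held in all 29 alternatives; those in controls held in 26 for Atp5j and 25 for Ndufb7.

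Atp5d (ENSMUSG00000003072, chr10:80138632-80145818), the delta subunit in the central stalk of ATP synthase, fell in controls, from 42.1, 36.05 and 39.7 RPKM to 32.2, 32.9 and 31.0, a log2 difference of -0.29 ± 0.09 (SE, with a limma adjusted p of 0.0379, 3.03e-05 to 0.125 over the alternatives). In mutants it went from 34.8, 37.2, 44.8 and 43.2 RPKM to 33.4, 34.8 and 33.7, a log2 difference of -0.22 ± 0.08 that was not called (limma adjusted p = 0.0754). Atp5s (ENSMUSG00000054894, chr12:69724950-69744660), known as factor B, rose in controls, from 7.62, 6.07 and 7.65 RPKM to 11.0, 10.7 and 11.3, a log2 difference of 0.57 ± 0.13 (SE, with a limma adjusted p of 0.00856, at most 0.0348 over the alternatives). In mutants Atp5s had 6.97, 6.73, 9.41 and 9.47 RPKM at E11.5 and 10.485, 11.0 and 9.91 at E12.5, a log2 difference of 0.34 ± 0.12 (limma adjusted p = 0.0614). So in both comparisons every E12.5 value of Atp5s was above every E11.5 value, but only the control difference was called, and the difference of the differences was not (log2 -0.23 ± 0.17, limma adjusted p = 1.00).

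Ndufv3 (ENSMUSG00000024038, chr17:31520115-31531331), a small subunit beside the NADH-binding site of complex I, rose in controls from 28.4, 25.0 and 29.7 RPKM to 34.7, 32.6 and 35.3, a log2 difference of 0.30 ± 0.10 (SE, with a limma adjusted p of 0.0442, 0.000211 to 0.138 over the alternatives). In mutants it had 25.2, 26.5, 29.987 and 33.6 RPKM at E11.5 and 34.2, 35.8 and 32.8 at E12.5 (log2 difference 0.25 ± 0.09, limma adjusted p = 0.0674). Cox6b2 (ENSMUSG00000051811, chr7:4751792-4753094) fell in mutants, from 18.9, 21.2, 17.4 and 21.7 RPKM to 14.5, 15.4 and 14.5, a log2 difference of -0.39 ± 0.10 (SE, with a limma adjusted p of 0.0182, 0.0013 to 0.0671 over the alternatives). In controls it had 14.7, 17.7 and 16.1 RPKM at E11.5 and 18.6, 16.2 and 14.3 at E12.5 (log2 difference 0.01 ± 0.10, limma adjusted p = 0.933). The difference between the Cox6b2 age effects was not called (log2 -0.40 ± 0.14, limma adjusted p = 1.00).

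Single libraries decided several of these calls. Without E11.5 control 1 or without E12.5 control 1, Atp5s alone was called in controls (adjusted p for Atp5j 0.0565 and 0.0665, and for Ndufb7 0.0702 and 0.0581). The control count was 9 without E11.5 control 2 and 8 without Sox9null 1. It was 3 without E12.5 control 2 and 2 without E12.5 control 3, and 3 without any 1 of the Sox9cKO libraries. In mutants the count was 7 without Sox9null 1, and 5 without Sox9null 4 or without E11.5 control 2. Counts over all genes moved as well. In controls 2126 rose and 668 fell with all libraries, and 1420 and 360 without E11.5 control 1. They were 1105 and 276 without E12.5 control 1, 1521 and 725 without E11.5 control 2, and 2540 and 834 without Sox9null 1. In mutants 1865 of all genes rose and 674 fell with all libraries, and 1275 and 563 without Sox9null 1. Cox6b2 was not called without Sox9cKO 1, 2 or 3 (limma adjusted p = 0.0671, 0.0572 and 0.0536). Ndufb7 was also lost in controls without E12.5 control 3 (0.0577). Atp5d was lost without E11.5 control 1 or 3 or any 1 E12.5 library (0.0533 to 0.125), and Ndufv3 without E11.5 control 1 or 2 or any 1 E12.5 library (0.0577 to 0.138). With the replicate number as a block Atp5d was not called in controls (0.0527), and with sex as a term Ndufv3 was not (0.105).

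**Figure D3:**
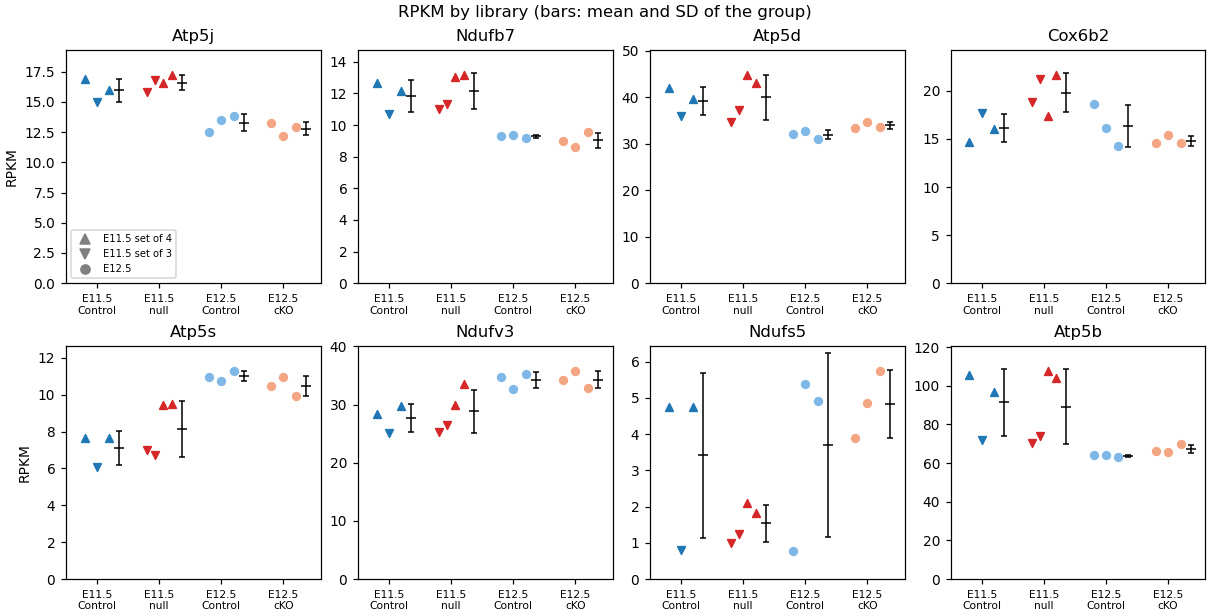
RPKM in each library for the 6 genes called with age and for Ndufs5 and Atp5b, with the group mean and SD as bars; upward triangles are the E11.5 set of 4 and downward triangles the set of 3. Atp5j and Ndufb7 lie lower in all 6 E12.5 libraries than in any E11.5 library, and the E11.5 values of Atp5b split by library set.

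How many genes changed with age, and in which direction, turned on the E11.5 libraries used. With the set of 4 alone at E11.5, 2 genes rose and 43 fell in controls, beside 25.7% and 17.3% of all genes, and 0 rose and 56 fell in mutants, beside 19% and 16%. With the set of 3 alone, 23 rose and 5 fell in controls, beside 36.8% and 12.9%, and 35 rose and 6 fell in mutants, beside 42.3% and 15.9%. These fits leave 1 or 2 libraries in an E11.5 group and assume that a lone library varies like the others. The median log2 difference was -0.18 in controls and -0.27 in mutants with the set of 4, and 0.11 in both with the set of 3. With every E11.5 library and the set in the model, 8 rose and 18 fell in controls, beside 38% and 17.4% of all genes, and 4 rose and 33 fell in mutants, beside 35% and 16.8%.

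The calls in complex I changed direction with the set. With the set of 4 it had 1 rise and 16 falls of 36 in controls and 0 and 25 in mutants, and with the set of 3 it had 18 rises and 0 falls in controls and 25 and 1 in mutants. Ndufa5, Ndufa6, Ndufa9, Ndufa10, Ndufa13 and Ndufb9, all of complex I, fell in both comparisons with the set of 4 and rose in both with the set of 3. ATP synthase had 1 rise and 12 falls of 15 in controls with the set of 4. The rise was that of Atp5s, which encodes no core subunit. With the set of 3, which leaves 1 control library at E11.5, the ATP synthase median in controls was a log2 difference of 0.01. There Atp5s stood at 0.76 and Atp5sl, also no core subunit, at 0.34, while the core subunits Atp5b and Atp5d stood at -0.18 and -0.17. Of the 15 genes 9 were above 0 and 6 below. In mutants with the set of 3, 3 ATP synthase genes rose and 3 fell. Atp5b, Atp5g3 and Uqcrc1 fell in controls and in mutants with either set, although none of them was called with all libraries (limma adjusted p 0.054 and 0.108, 0.0624 and 0.0756, and 0.0635 and 0.073). These patterns were chosen after their values were seen.

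**Figure D4:**
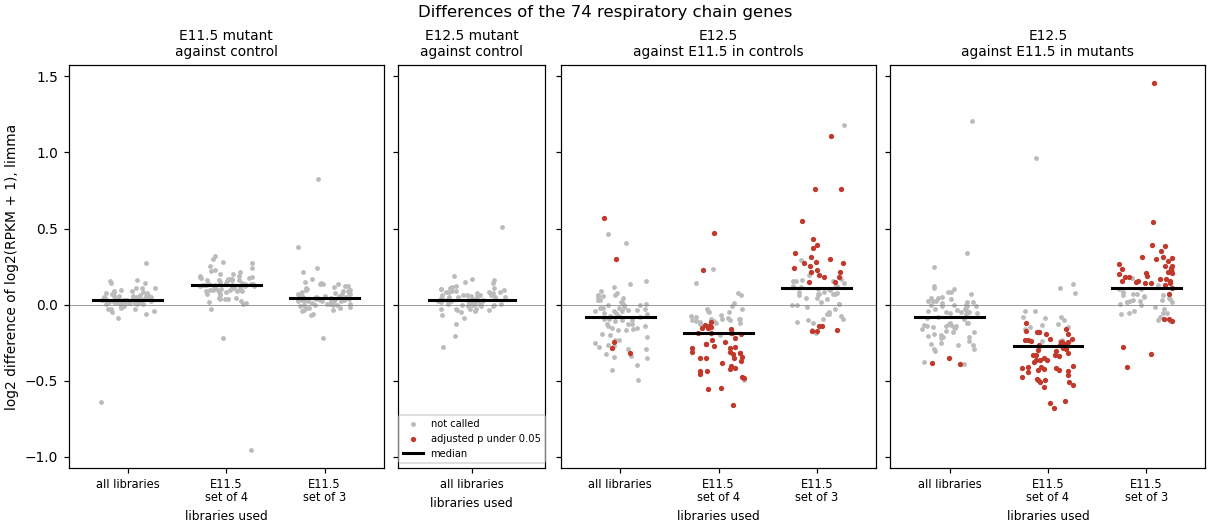
Log2 differences of the 74 genes (dots, red where the limma adjusted p was under 0.05) for the mutant effects and for age, with all libraries and with either E11.5 set alone; black bars are medians. In the age panels the median moves from -0.18 and -0.27 with the set of 4 to 0.11 and 0.11 with the set of 3, and no dot is red in the mutant panels.

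The balance between complexes was also compared within each library. The summed RPKM of the ATP synthase genes was 0.462 to 0.496 of that of the complex I genes in the 7 E11.5 libraries and 0.396 to 0.413 in the 6 E12.5 libraries. By group the ratio was 0.483 ± 0.0137 in the E11.5 controls (SD, n = 3), 0.470 ± 0.0106 in Sox9null (SD, n = 4), 0.404 ± 0.00738 in the E12.5 controls (SD, n = 3) and 0.410 ± 0.00445 in Sox9cKO (SD, n = 3). Without Atp5a1 and Atp5b, the highest of them, it was 0.295 to 0.304 and 0.263 to 0.273. Complex III against complex I was 0.282 to 0.301 at E11.5 and 0.257 to 0.265 at E12.5, and complex IV against complex I 0.351 to 0.381 and 0.311 to 0.326. The ages were apart in all of these ratios, and the control and mutant ranges overlapped at both ages. Complex II against complex I gave 0.128 to 0.141 and 0.131 to 0.141, and the ages overlapped, although the ratio of their median RPKM was 1.218 to 1.401 at E11.5 and 1.136 to 1.216 at E12.5, without overlap. A ratio within a library is free of the scaling between libraries but shows unequal change only, and these ratios were chosen after the values were seen, with no test.

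Ndufs5 (ENSMUSG00000028648, chr4:123712710-123718202), a complex I accessory subunit, had the largest log2 difference of the 74 genes between the E11.5 library sets, 1.04. Its RPKM was 4.74, 0.791 and 4.74 in the E11.5 controls, 0.989, 1.24, 2.11 and 1.82 in Sox9null, 0.768, 5.40 and 4.93 in the E12.5 controls and 3.89, 4.87 and 5.75 in Sox9cKO. It was thus near 1 RPKM in 4 libraries of 3 groups, namely the E11.5 set of 3 and a single E12.5 control, and 3.89 or more in 7. No other of the 74 genes was as low in E12.5 control 1 against its group. Its age difference in mutants, the largest of all at a log2 difference of 1.21 ± 0.47 (SE), was not called (limma adjusted p = 0.09).

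Isoforms that replace each other between tissues could be compared in few cases, since Cox6a2, Cox8b and Cox8c were not analysed here. Cox7a1 had 3.38 ± 1.49, 3.69 ± 1.02, 4.76 ± 0.379 and 3.80 ± 0.983 RPKM (SD, n = 3, 4, 3 and 3) in E11.5 controls, Sox9null, E12.5 controls and Sox9cKO. Cox7a2 had 48.3 ± 6.81, 52.6 ± 10.7, 43.8 ± 2.49 and 46.7 ± 4.83 RPKM in the same order. With all libraries and no added term neither was called in any comparison. With the set of 3 alone at E11.5, Cox7a1 rose in controls, and with the set of 4 alone Cox7a2 fell in controls and in mutants. The muscle markers summed to 52.9 to 94.8 RPKM in the E11.5 controls and 216 to 283 in the E12.5 controls. Outside the naming patterns, Cox4i2, a complex IV isoform linked to lung and low oxygen, rose in controls and mutants (log2 difference 0.85 ± 0.12 and 0.58 ± 0.11, limma adjusted p = 0.00104 and 0.00658). Cox4i1, the common form, had log2 differences of -0.38 and -0.35 that were not called, and Cyc1, the heme subunit of complex III, fell in both (-0.22 and -0.27, limma adjusted p = 0.0402 and 0.0167).

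Related pathways were set beside the chain. No gene of these lists was called for the loss of Sox9 at either age. Of 33 assembly factors 1 rose with age in controls and 1 in mutants, in both cases Tmem126b (log2 difference 0.29 and 0.30), which is needed to assemble complex I, and 0 fell. Of 17 tricarboxylic acid cycle genes 0 rose and 2 fell in controls, Mdh2 (-0.39) and Cs (-0.22), which encode malate dehydrogenase and citrate synthase, and in mutants Mdh2 fell (-0.36) and Dlat, of pyruvate dehydrogenase, rose (0.23). Of 21 glycolysis genes 2 rose and 4 fell in controls, with Pkm at -0.72 and Eno1 at -0.61, and 1 rose and 5 fell in mutants, with Pkm at -0.58 and Ldha at -0.44.

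Of 15 regulators of mitochondrial gene expression 0 rose and 1 fell in each comparison. Gabpb1, a GABP subunit, fell in controls (log2 difference -0.17) and Pprc1, a coactivator of the PGC-1 family, fell in mutants (-0.70). Pprc1 also had the lowest log2 difference of the list in controls (-0.57), where it was not called. Nrf1, whose motif was searched above, had log2 differences of -0.01 and -0.01, Yy1 -0.06 and 0.02, and Esrra, which encodes ERR alpha, 0.17 and 0.04, none of them called. Of 74 mitochondrial ribosomal protein genes 1 rose and 2 fell in each comparison, and of 78 cytosolic ribosomal protein genes 0 rose and 4 fell in controls and 1 rose and 7 fell in mutants. The shares of all genes called are those given above for age, and these lists give counts only.

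The 74 genes are spread over 19 chromosomes and are short: the median of their joined exons was 1737 bases, beside 4549 for the 11565 protein-coding genes in the table. For 33 of them at least 1 annotated pseudogene matched the transcript at 90% identity or more over at least 100 bases, with 14 for Ndufa1, 6 for Atp5h and 5 for Atp5g1. No source used here says how reads that fit several places were counted, and the levels of those genes are less certain. Of the 6 genes called with age only Ndufb7 has such a copy. In the authors' deposited table, whose p-value spans all 4 groups, 3 of the 74 genes (4.05%) were at 0.05 or less, beside 22% of all genes: Atp5j (0.00295), Ndufb7 (0.00919) and Atp5s (0.0311).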

How the data were processed

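Total RNA of limb buds was extracted with a Qiagen column kit and sequenced by a usual Illumina protocol, per the labels. CASAVA 1.8 and build mm10 were used, per the submitters' processing notes (for the aligner, counting, strand use and depth, none is stated there). The authors deposited 1 table of normalized RPKM values for 13 libraries, with genes whose mean was at least 3 RPKM in at least 1 group, per the file headers. The header names each column by its group and embryo number, which match the labels' titles, and 0 columns of samples were left unused. The authors' p-value per gene comes from a one-way ANOVA over the 4 groups with Benjamini-Hochberg adjustment, per the file headers, and was used for 1 description only. Low values were searched for whole multiples of 1 read. In the 8 libraries with enough of them, 41.7% to 59.1% lay within 0.1 of a whole number at the best step, so reads were not recovered, depth is unknown and no count model was used. Precision is limited by 3 or 4 libraries a group, and p-values measure the spread between these embryos.

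The test was limma 3.58.1 in R 4.3.3 on log2(RPKM + 1), with 4 group means over all 13 libraries, trended prior variance and robust estimation. A filter of 1 RPKM in at least 3 libraries removed no gene. Fold changes on this scale understate the change of low genes. P-values were two-sided and adjusted over all 12880 genes. Genes with an adjusted p under 0.05 were called. The step was tested on simulated data. Gene positions and exon lengths came from GENCODE release 21 (GRCm38), which held 12715 of the genes. Copies were sought with BLAST against annotated pseudogene transcripts.

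Genes were named where they were called, or had the highest or lowest level or difference of their complex, or were core subunits or tissue isoforms; of other lists, called genes and extremes. The genes and lists were chosen with earlier results of these data known, so their patterns are no independent support. Alternatives covered the pseudocount, filters, scaling, the fit, sex, the replicate number as a block and each library left out; 3 on the E11.5 library sets were chosen after seeing the data.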

Additional observations from a re-analysis of the deposited data

Results flagged for a closer look

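One value stood far from the others of its group. Atp5g1 had 3.55 RPKM in the lowest of the 4 Sox9null libraries, while the highest had 4.69, and the gap to the next library took up 0.902 of the range, above Dixon's critical value at 95% for a group of 4. With 74 genes looked at in this group, chance flags about 1 in 20.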

How the results depend on the processing

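Under all alternatives 0 genes were called for loss of Sox9 at either age or for the difference of those effects. Called genes for age in controls numbered 5, against 9 with quantile normalization, 16 with centring on the library median, 11 with scaling without globin genes, 10 with sex as a term and 26 with the E11.5 library set as a term. In mutants they numbered 3, against 9, 11, 11, 5 and 37 in the same order. Same-numbered controls and mutants at E11.5 correlated at -0.43, 0.64 and 0.44 for numbers 1, 2 and 3. Number 1 joins libraries of different E11.5 sets, and numbers 2 and 3 libraries of the same set. These correlations therefore cannot show whether the numbers pair libraries. With the replicate number as a block, called genes for age numbered 6 in controls and 5 in mutants. With the set term and centring they numbered 42 and 52, with the set of 4 alone 45 and 56, and with the set of 3 alone 28 and 41. Leaving out 1 library gave 1 to 9 in controls and 2 to 7 in mutants, and medians of -0.18 to -0.04 and -0.16 to -0.01; for Sox9 loss the medians ran from -0.07 to 0.11 at E11.5 and from 0.02 to 0.05 at E12.5, and for the difference from -0.07 to 0.10. The median with sex as a term, which is mixed with the E11.5 library sets, was 0.13 for Sox9 loss at E12.5, beside 0.04 for all genes. The age medians were 0.11 and 0.11 with the set of 3 and -0.27 in mutants with the set of 4. Centring moved the median of all genes for age in controls from 0.06 to -0.04 and turned the split of all calls from 2126 higher and 668 lower to 1364 and 1935; in mutants it went from 1865 and 674 to 1152 and 1393. With quantile normalization the splits were 1477 and 1187, and 1336 and 1066. Scaling without globin genes gave 3084 and 782 of all genes in controls, and 2949 and 758 in mutants. Sex as a term gave 1671 and 760, and 1923 and 725. The library set as a term gave 4893 and 2239, and 4506 and 2169, and with centring 2692 and 4082, and 2751 and 3523. So the calls over all genes changed between settings too.

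Among named genes, some age differences in mutants changed sign and were called with 1 set alone. Sdhb went to -0.18 with the set of 4. With the set of 3, Cox6b1 went to 0.11, Uqcrfs1 to 0.068, Ndufa4 to 0.17, Uqcrh to 0.16, Atp5k to 0.25 and Uqcrc2 to 0.18. None of these genes was called in mutants with all libraries. There Sdhb showed almost no difference, and Uqcrc2 stood at -0.008, Cox6b1 at -0.18, Ndufa4 at -0.15 and Atp5k at -0.12. The cause of these sign changes was not tested. Depth is unknown, so low genes such as Ndufs5 and Cox7a1 are least precise.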
